A study of Mus musculus with 21 samples.

Results

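The 9 genes described here are transcription factors of endothelial cells: the SoxF genes Sox7, Sox17 and Sox18 and the forkhead genes Foxf1, Foxf2, Foxq1, Foxc1, Foxc2 and Foxo1. They were taken by gene symbol from the expression files, in which each of the 9 has 1 row of 23827 in all. RNA was sequenced from E14.5 mouse embryos in 21 libraries, 3 in each of 7 groups. All groups carried Gt(ROSA)26Sor-mCherry-Rpl10a+/-, an allele from 1 targeted embryonic stem cell clone that makes mCherry-tagged ribosomes under the CAGGS promoter wherever Cre has acted, and RNA bound to tagged ribosomes was pulled down as the translatome.

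The brain and kidney transcriptomes (total RNA) and translatomes came from forebrain and kidney of Sox2Cre+/- embryos, in which Cre acts in all cells of the embryo proper. The brain endothelial (EC) and kidney EC translatomes came from Cdh5CreERT2+/- embryos, in which tamoxifen given to the mother activates Cre in cells that use the Cdh5 promoter. The Emx1-lineage translatome came from forebrain of Emx1Cre+/- embryos, in which Cre acts in the dorsal telencephalon. Each library pooled organs of more than 1 embryo. The brain EC and the kidney EC libraries were sequenced on separate lanes, so organ and lane cannot be told apart in any comparison between them. Each EC translatome also differed from its organ reference in Cre driver and lane.

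SoxF proteins carry an HMG box that bends DNA, act redundantly in vascular development, and are known for arterial (Sox17) and lymphatic (Sox18) specification. Forkhead proteins bind DNA through a winged-helix domain. Foxc1 and Foxc2 act in endothelium, mesenchyme, meninges and kidney, Foxf1 and Foxf2 are best known from mesenchyme and pericytes, and Foxf2 and Foxq1 have been linked to the endothelium of the blood-brain barrier. Foxo1 is held out of the nucleus by PI3K and AKT signalling and restrains endothelial growth, so its RNA level says little about its activity.

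The endothelial libraries held the markers their labels call for. The summed RPKM (reads per kilobase, scaled to the reads of the library) of 13 pan-endothelial markers was 3251.0 to 3365.6 in brain EC and 174.5 to 197.3 in the brain translatome, and 2667.8 to 3128.3 in kidney EC and 479.6 to 514.4 in the kidney translatome. Other cell types were still present. The sum of 8 neural markers was 344.0 to 446.4 in brain EC, against 1875.3 to 1911.8 in the brain translatome, and the sum of 6 podocyte markers was 93.0 to 108.8 in kidney EC, against 123.7 to 140.8 in the kidney translatome. Most of the podocyte sum of the kidney translatome was Wt1 (87.5 RPKM, and 26.3 in kidney EC), and the other 5 podocyte markers were higher in kidney EC. In such bulk libraries fewer cells of a type and less RNA per cell cannot be told apart.

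**Figure D1:**
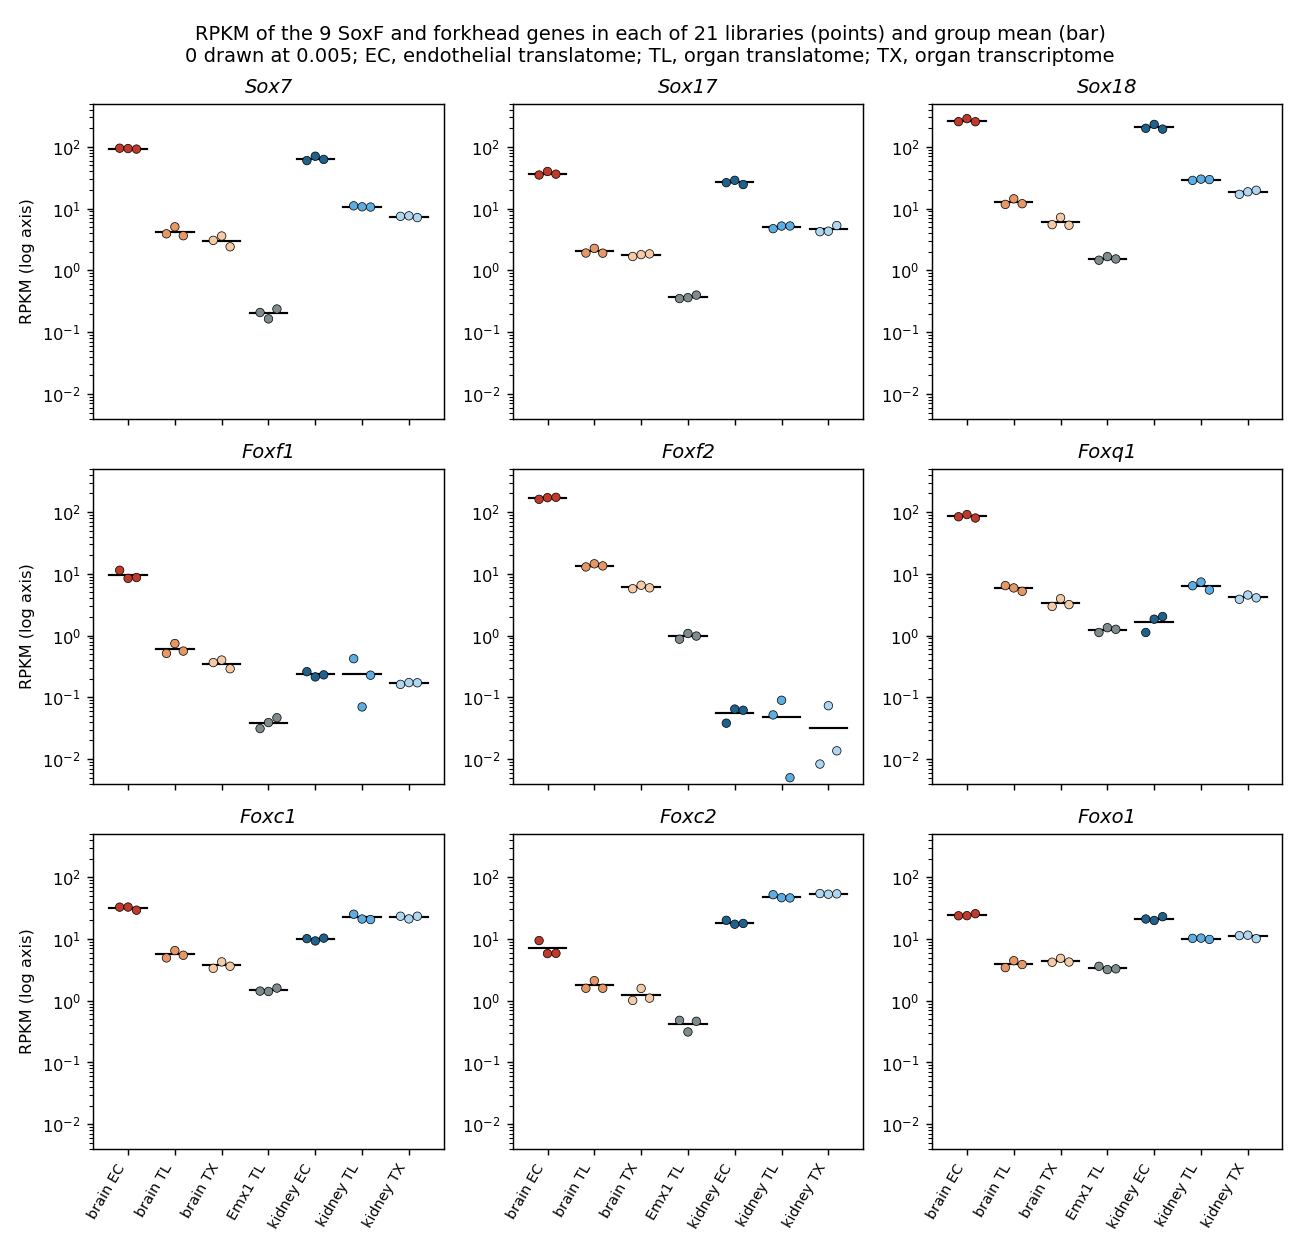
RPKM (y, log axis) of the 9 genes in each of the 21 libraries (points) over the 7 groups (x), with bars at the arithmetic mean of 3 replicates and a value of 0 drawn at 0.005. The 3 Sox genes are high in both EC groups, Foxf1 and Foxf2 are high in brain EC and low in every kidney group, and Foxc2 is highest in whole kidney. Foxq1 is high in brain EC, low in kidney EC and at similar levels in whole kidney and whole brain.

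Brain EC was set against kidney EC to ask which of these factors differ between the endothelium of a barrier-forming organ and that of the kidney. Of the 9 genes, 6 were higher in brain EC, 1 was lower and 2 did not pass an adjusted p of 0.001 (edgeR quasi-likelihood test). Over all 19238 rows tested, 20.1% were higher, 16.9% lower and 37.0% called in either direction, and the median log2 fold change was 0.59 for the 9 genes and 0.01 for all rows. The changes fell into ranges that differed widely in size: the 3 Sox genes and Foxo1 differed by less than 2-fold, Foxc1 and Foxc2 by 3.28-fold and 2.55-fold in opposite directions, and Foxf1, Foxq1 and Foxf2 by 41.1-fold or more.

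Foxf2 was the most unequal of the 9 genes. Its RPKM in brain EC was 160.4, 170.6 and 172.8, from 23541, 21500 and 23484 reads. In kidney EC it was 0.0381, 0.0645 and 0.0617, from 4, 5 and 6 reads. The groups lay far apart, and the kidney EC values overlapped those of the whole kidney translatome (0.0519, 0.0895 and 0, from 3, 5 and 0 reads). The log2 fold change was 11.62 (adjusted p = 4.0e-12). With 15 reads in kidney EC in all, its size is best read from the ratio of depth-scaled reads, 3154.3, with an exact 95% interval of 1912.3 to 5636.2 that covers counting error only.

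Foxq1 and Foxf1 followed the same direction. Foxq1 RPKM was 83.7, 90.9 and 79.9 in brain EC and 1.12, 1.84 and 2.03 in kidney EC (log2 fold change 5.72 ± 0.18 SE, adjusted p = 9.1e-10). Foxf1 RPKM was 11.4, 8.42 and 8.7 in brain EC and 0.26, 0.214 and 0.231 in kidney EC (5.36 ± 0.18, adjusted p = 1.4e-09). Neither gene overlapped between the groups, and each kidney EC library was at least an order of magnitude below each brain EC library. Per length, Foxf2 was the most abundant forkhead gene of the 6 in brain EC at 167.9 ± 6.62 RPKM (SD, n = 3), followed by Foxq1 at 84.8 ± 5.56, Foxc1 at 31.6 ± 2.07, Foxo1 at 24.4 ± 1.09, Foxf1 at 9.5 ± 1.64 and Foxc2 at 7.01 ± 2.07. The values of Foxf1 and Foxc2 overlapped. In kidney EC the order was Foxo1 at 21.3 ± 1.49, Foxc2 at 18.4 ± 1.44 and Foxc1 at 9.89 ± 0.537, with Foxo1 and Foxc2 overlapping at the margin (19.9 and 20.0).

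Foxc1 and Foxc2, close paralogs with largely shared roles, differed in opposite directions. Foxc1 RPKM was 32.7, 32.8 and 29.2 in brain EC and 10.1, 9.28 and 10.3 in kidney EC (log2 fold change 1.72 ± 0.08, adjusted p = 1.8e-08). Foxc2 RPKM was 9.4, 5.79 and 5.84 in brain EC and 20.0, 17.3 and 17.8 in kidney EC (-1.35 ± 0.17, adjusted p = 4.1e-05). Neither gene overlapped between the groups, and brain EC replicate 1 stood above the other 2 brain EC libraries for Foxc2 and Foxf1. Foxc1 made up 82.0% ± 3.83 of the summed RPKM of the pair in brain EC and 35.0% ± 1.49 in kidney EC (SD, n = 3).

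In brain EC replicate 1 the summed RPKM of 10 fibroblast and meningeal markers was 280.4, against 173.2 and 205.5 in replicates 2 and 3. Aldh1a2, an enzyme of retinoic acid synthesis, was at 13.2, 8.19 and 8.63 RPKM, and the transporter Slc6a13 at 18.5, 11.7 and 12.0. The part of these cells in the Foxc2, Foxc1 and Foxf1 values was not tested. Without this library the log2 fold change was -1.62 for Foxc2 (adjusted p = 4.8e-07), 5.22 for Foxf1 and 1.69 for Foxc1. In kidney EC the same marker sum was 377.9 to 552.4, so both EC groups held these transcripts, but its make-up differed. Slc6a13 (log2 fold change 5.45), Dcn (1.52) and Lum (1.44) were higher in brain EC than in kidney EC. Col1a1 (-2.14), Twist2 (-1.83), Aldh1a2 (-1.71), Pdgfra (-1.43), Col3a1 (-1.42) and Col1a2 (-0.95) were lower, and Twist1 (-0.4) did not pass.

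The SoxF genes were the most abundant of the 9 in kidney EC and, apart from Foxf2 and Foxq1, in brain EC. Sox18 RPKM was 255.6, 286.2 and 255.0 in brain EC and 199.6, 230.6 and 193.6 in kidney EC. Sox7 RPKM was 95.0, 93.8 and 91.9 in brain EC and 59.9, 70.5 and 62.6 in kidney EC, and Sox17 RPKM was 35.0, 39.9 and 36.1 against 26.3, 28.7 and 24.5. All 3 genes were higher in every brain EC library than in any kidney EC library. The share of all rows that separate in this way is not given here. The log2 fold changes were 0.59 ± 0.07 for Sox7 (adjusted p = 3.7e-05) and 0.53 ± 0.08 for Sox17 (adjusted p = 1.3e-04). Sox18, at 0.40 ± 0.08 (adjusted p = 0.0016), did not pass the threshold, but passed it with the replicate number as a block (adjusted p = 6.0e-04). No label or method gives same-numbered brain EC and kidney EC libraries a common source, so this block is not a known pairing.

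The pan-endothelial markers were themselves higher in brain EC on balance, with 6 of 13 higher, 1 lower and a median log2 fold change of 0.30. Of all rows 20.1% were higher and 16.9% lower. Scaling the libraries to these 13 markers left 4 of the 9 genes higher and 1 lower. The share of all rows called under this scaling is not given here, so these counts are not set against it. Sox7 was then at 0.36 (adjusted p = 0.0028), Sox17 at 0.31 (adjusted p = 0.005) and Sox18 at 0.18 (adjusted p = 0.092), so no SoxF gene passed, whereas Foxf2, Foxq1, Foxf1, Foxc1 and Foxc2 kept their calls at 11.4, 5.49, 5.14, 1.49 and -1.57. Foxo1 RPKM was 23.7, 23.8 and 25.6 in brain EC and 21.0, 19.9 and 22.9 in kidney EC. Every brain EC value was above every kidney EC value, but the difference of 0.24 ± 0.08 did not pass (adjusted p = 0.021), and it was 0.01 with the endothelial markers as scale (adjusted p = 0.93).

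**Figure D2:**
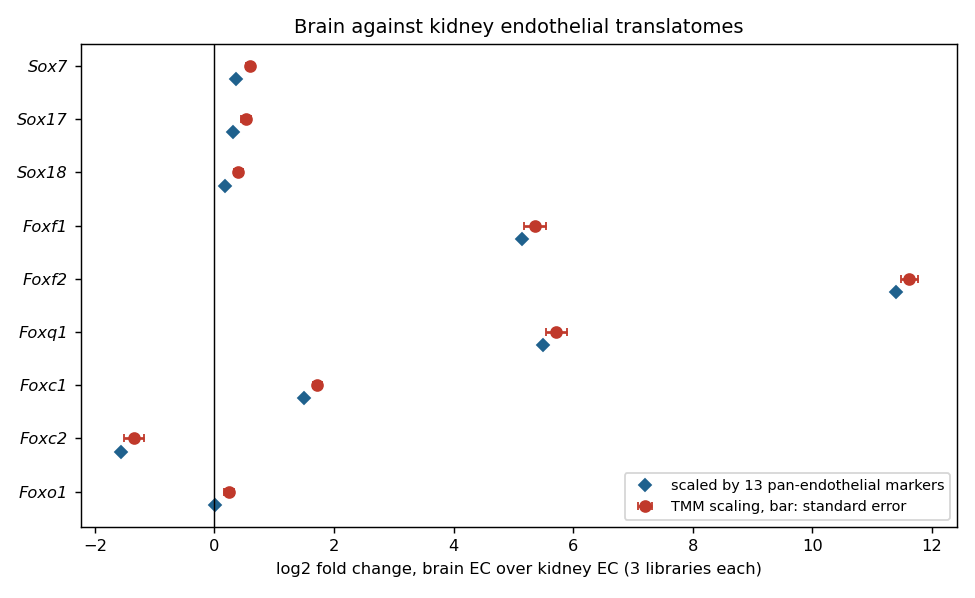
Log2 fold change of brain EC over kidney EC (x, 3 libraries each) for the 9 genes, as circles with standard errors under TMM scaling and as diamonds when scaled by 13 pan-endothelial markers. Foxf2, Foxq1 and Foxf1 lie at 11.62, 5.72 and 5.36, the Sox genes between 0.40 and 0.59, and Foxc2 at -1.35, with the diamonds slightly to the left of the circles.

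The 3 SoxF genes kept similar proportions in both endothelia. Sox18 gave 67.0% ± 1.01 of the summed SoxF RPKM in brain EC and 69.6% ± 0.536 in kidney EC (SD, n = 3), Sox7 gave 23.7% ± 1.19 and 21.6% ± 0.692, and Sox17 gave 9.34% ± 0.229 and 8.87% ± 0.282. The summed level was 396.2 ± 20.6 RPKM in brain EC and 298.8 ± 27.0 in kidney EC. Sox18 was also the leading SoxF gene in the whole-organ groups, at 55.6% in the brain transcriptome, 67.1% in the brain translatome, 60.5% in the kidney transcriptome and 64.9% in the kidney translatome.

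The FoxF pair was less even. Foxf2 gave 94.6% ± 1.08 of the summed FoxF RPKM in brain EC and between 94.5% and 96.2% on average in the other brain groups. In kidney EC Foxf1 gave 81.0% ± 5.5, but of a summed level of 0.29 ± 0.01 RPKM against 177.4 ± 5.06 in brain EC, and the kidney shares rest on few reads. The FoxC pair was Foxc1-rich in all 4 brain groups, with mean Foxc1 shares from 75.4% to 82.0%, and Foxc2-rich in all 3 kidney groups, with mean Foxc2 shares from 65.0% to 70.4%.

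**Figure D3:**
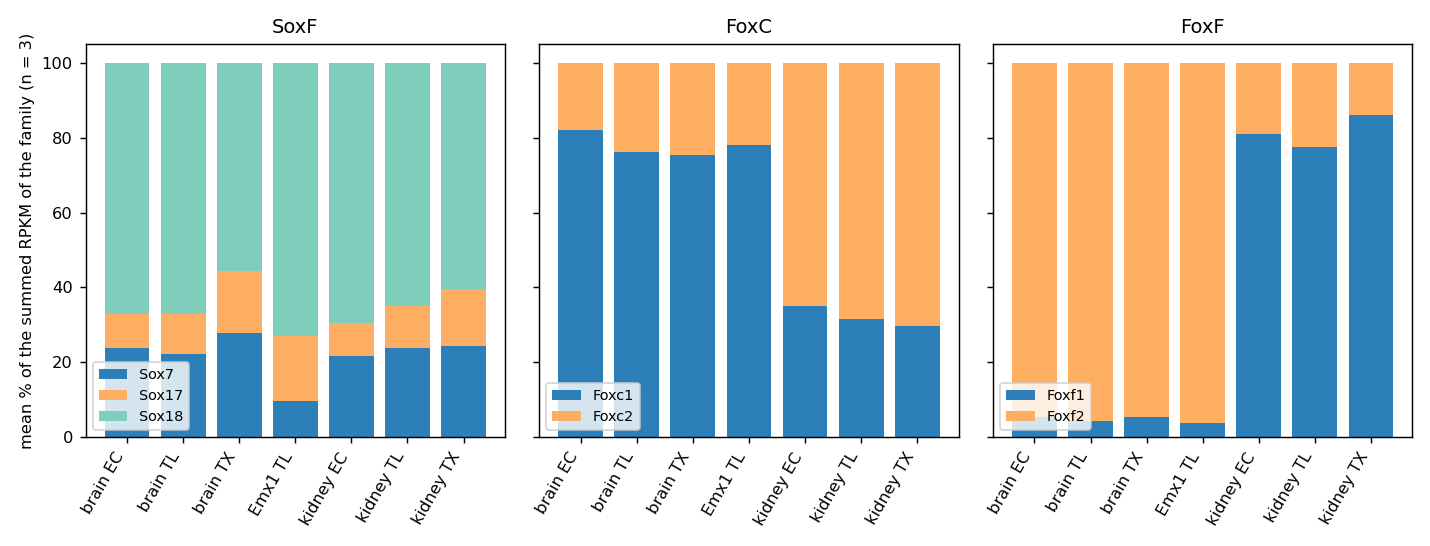
Mean share (y, percent, n = 3) of each member in the summed RPKM of the SoxF, FoxC and FoxF families in the 7 groups (x). Sox18 leads the SoxF family in every group, Foxc1 leads FoxC in brain groups and Foxc2 in kidney groups, and Foxf2 leads FoxF in brain groups.

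Several of the forkhead genes are neighbours, and genes of the same cluster did not always change together. On GRCm38 chromosome 13, Foxq1 (31556134 to 31560976, 1 exon), Foxf2 (31625816 to 31631403, 2 exons) and Foxc1 (31806633 to 31812476, 1 exon) lie on the plus strand, and all 3 were higher in brain EC. The noncoding row 1700018A04Rik lies between Foxq1 and Foxf2 on the other strand with its start 24 bases from Foxf2. It had 150, 113 and 137 reads in brain EC and 0 reads in all 3 kidney EC libraries, which is at least 92.1-fold higher in brain EC at a floor of 3 reads over the kidney EC group. Gmds, 7103 bases from Foxc1 and an enzyme of GDP-fucose synthesis, was at 19.9 against 13.8 RPKM (log2 fold change 0.58 ± 0.10, adjusted p = 3.8e-04). The library kit did not keep strand, so reads of 1700018A04Rik and Foxf2 could be told apart only by position.

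On chromosome 8, Foxf1 (121084386 to 121088144, 2 exons) and Foxc2 (121116171 to 121118895, 1 exon) lie on the plus strand 28027 bases apart and differed in opposite directions. Foxl1, a mesenchymal forkhead gene 9045 bases from Foxc2, was lower in brain EC at 0.415 against 2.59 RPKM (-2.59 ± 0.16, adjusted p = 1.5e-07). Mthfsd, which lies between Foxf1 and Foxc2 and 3484 bases from Foxf1, was at 10.8 and 12.4 RPKM and did not pass (-0.14 ± 0.08, adjusted p = 0.16). The span of the annotated gene Gm20388 covers Foxf1 and Foxc2 on the same strand, and whether its exons share reads with them was not checked. The other 4 genes lie apart from these clusters, Sox7 on chromosome 14 (63943673 to 63950732, plus strand, 2 exons), Sox17 on chromosome 1 (4490931 to 4497354, minus strand, up to 5 exons), Sox18 on chromosome 2 (181669836 to 181671640, minus strand, 2 exons) and Foxo1 on chromosome 3 (52268336 to 52353221, plus strand, 3 exons). The spans of annotated genes on the opposite strand overlap Foxq1 (A530084C06Rik), Sox17 (Gm37587) and Foxo1 (Gm20402). Reads from any shared exons could not be told apart without strand.

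**Figure D4:**
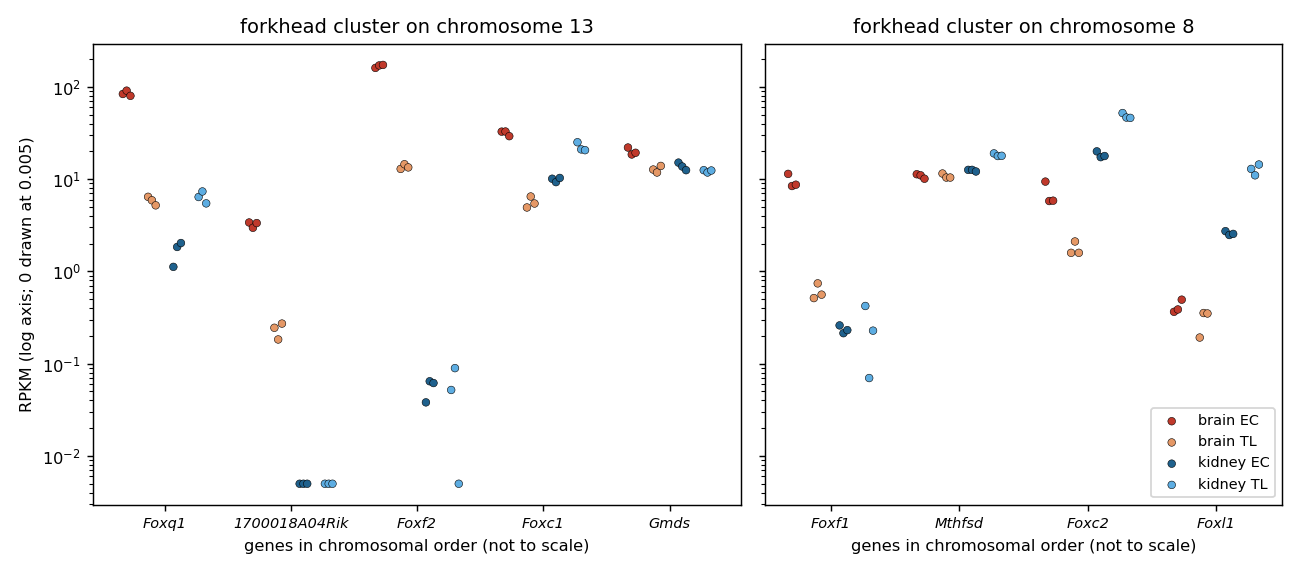
RPKM (y, log axis, 0 drawn at 0.005) of the genes of the 2 forkhead clusters in chromosomal order (x, not to scale) in each library of brain EC, the brain translatome (TL), kidney EC and the kidney translatome. Foxq1, 1700018A04Rik and Foxf2 are highest in brain EC, while Foxc2 and Foxl1 are highest in the kidney translatome.

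Promoter windows, running from 250 bases before to 50 after the RefSeq start on GRCm38.p6, were held for 3 of the 9 genes. They are shown for Foxf2 and Foxc1, which were both higher in brain EC, and for Foxo1, which was not called. Capitals mark AGGAAG, the core of an ETS motif, or its reverse complement CTTCCT.
Foxf2, chr13:31625566-31625865, plus strand: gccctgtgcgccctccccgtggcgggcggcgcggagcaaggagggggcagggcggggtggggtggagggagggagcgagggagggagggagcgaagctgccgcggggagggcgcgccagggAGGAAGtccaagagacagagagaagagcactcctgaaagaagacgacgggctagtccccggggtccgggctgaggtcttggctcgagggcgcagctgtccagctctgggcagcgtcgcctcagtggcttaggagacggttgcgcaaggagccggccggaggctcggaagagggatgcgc
Foxc1, chr13:31806396-31806695, plus strand: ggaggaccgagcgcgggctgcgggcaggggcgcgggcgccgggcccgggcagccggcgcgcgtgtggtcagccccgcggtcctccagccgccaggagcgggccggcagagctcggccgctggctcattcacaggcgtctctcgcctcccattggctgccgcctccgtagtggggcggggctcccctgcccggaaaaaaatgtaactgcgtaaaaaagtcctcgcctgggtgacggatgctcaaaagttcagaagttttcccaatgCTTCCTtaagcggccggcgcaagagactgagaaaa
Foxo1, chr3:52268087-52268386, plus strand: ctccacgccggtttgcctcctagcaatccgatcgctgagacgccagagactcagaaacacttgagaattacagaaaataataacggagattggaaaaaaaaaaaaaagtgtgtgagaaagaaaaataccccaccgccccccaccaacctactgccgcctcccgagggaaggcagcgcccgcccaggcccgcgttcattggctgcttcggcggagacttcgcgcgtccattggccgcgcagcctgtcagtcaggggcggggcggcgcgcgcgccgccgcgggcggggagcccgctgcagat

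The Foxf2 and Foxc1 windows each held 1 match to the ETS letters and the Foxo1 window none, where 35.4% of 32851 RefSeq promoter windows held at least 1. The forkhead letters TGTTTAC (3.65% of all windows) and the Sox letters ACAAT (31.0%) were searched on both strands and matched in none of the 3 windows. No match overlapped another. A match is only a description of these letters.

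Against whole brain the endothelial libraries were enriched for all 9 genes. Every brain EC value was above every brain translatome value, and 9 of 9 were higher, where 24.8% of 19103 rows tested were. The enrichment was largest for the SoxF genes: the log2 fold change was 4.77 ± 0.11 for Sox7, 4.68 ± 0.10 for Sox18 and 4.49 ± 0.09 for Sox17, beside a median of 4.57 for the 13 pan-endothelial markers. Foxf1, Foxq1 and Foxf2 stood at 4.28 ± 0.16, 4.15 ± 0.09 and 3.92 ± 0.08. Foxo1 (2.94 ± 0.09), Foxc1 (2.78 ± 0.10) and Foxc2 (2.29 ± 0.19) were less enriched, and the largest adjusted p of the 9 was 1.8e-07, for Foxc2.

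In the brain translatome Foxc1 was at 4.93, 6.48 and 5.44 RPKM, Foxc2 at 1.59, 2.11 and 1.59 and Foxo1 at 3.43, 4.44 and 3.85. These 3 genes were thus present in whole forebrain at a larger share of their brain EC level than the SoxF genes were, Sox18 being at 11.7, 14.4 and 12.0 against 255.0 to 286.2. Of the 10 fibroblast and meningeal markers, 7 were also higher in brain EC than in the brain translatome, with a median log2 fold change of 0.84 and Slc6a13 (1.81) and Aldh1a2 (1.72) at the top. Their part in the FoxC enrichment was not tested. Of the 10 mural markers, which mark pericytes and smooth muscle, 5 fell and 1 rose, with a sum of 42.2 to 50.2 RPKM in brain EC and 63.5 to 79.9 in the brain translatome. Against the brain transcriptome, which shares the brain EC libraries, all 9 genes were again higher (26.8% of rows), from 2.80 ± 0.07 for Foxo1 to 5.79 ± 0.12 for Sox18.

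Against whole kidney the genes divided. Sox18, Sox7, Sox17 and Foxo1 were higher in kidney EC, Foxq1, Foxc1 and Foxc2 were lower, and Foxf1 and Foxf2 did not pass, where 16.7% of 18940 rows were higher and 15.0% lower. The log2 fold change was 3.18 ± 0.08 for Sox18, 2.93 ± 0.07 for Sox7 and 2.74 ± 0.08 for Sox17, beside a median of 3.03 for the pan-endothelial markers, and 1.43 ± 0.07 for Foxo1. Foxo1 RPKM was 10.2, 10.3 and 9.82 in the kidney translatome, below each kidney EC value.

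Foxc2 RPKM in the kidney translatome was 52.0, 46.5 and 46.1, and Foxc1 RPKM was 25.1, 21.0 and 20.6, in both cases above all kidney EC values. The log2 fold changes of kidney EC were -1.03 ± 0.08 for Foxc2 (adjusted p = 6.5e-07) and -0.81 ± 0.09 for Foxc1 (adjusted p = 1.5e-05). Foxq1 RPKM was 6.4, 7.35 and 5.46 in the kidney translatome, and kidney EC was lower by more (-1.59 ± 0.20, adjusted p = 4.3e-05). Markers of other kidney cells fell as well in kidney EC: all 6 nephron progenitor markers (median -2.10), all 4 stromal markers (median -1.50), and 5 of 6 markers of the ureteric epithelium (median -1.91). Of the 6 podocyte markers 5 were higher, with a median of 1.19, and Wt1, which nephron progenitors also express, was lower, as was the sum of the 6. The part of these cells in the forkhead values was not tested.

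Foxf1 and Foxf2 were near the limit of detection in all kidney groups. Foxf1 had 28, 17 and 23 reads in kidney EC and 25, 4 and 12 in the kidney translatome, and its difference of 0.32 ± 0.49 was not detectable at this depth (adjusted p = 0.60). Foxf2 had between 0 and 7 reads in each of the 9 kidney libraries, and its difference was 0.50 ± 0.80 (adjusted p = 0.61). Against the kidney transcriptome, which shares the kidney EC libraries, 4 genes were higher (22.7% of rows) and Foxc1 and Foxc2 were lower (18.4% of rows), at -0.76 ± 0.07 and -1.11 ± 0.06, while Foxq1 at -0.90 ± 0.19 did not pass (adjusted p = 0.0023). Foxq1 did pass there under library totals (-1.33), in the fit of all 21 samples (-1), under DESeq2 (-0.9) and without kidney EC replicate 3 (-1.09).

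The organ difference in endothelial enrichment was tested as an interaction in 12 libraries. It was positive and called for all 9 genes, where 16.5% of 19764 rows were called in that direction and the median of all rows was 0.15. All 13 pan-endothelial markers were called in the same direction as well, with a median of 1.51. Sox18 (1.53 ± 0.12), Foxo1 (1.53 ± 0.12), Sox17 (1.77 ± 0.12) and Sox7 (1.87 ± 0.13) lay near that median, whereas Foxc2 (3.35 ± 0.23), Foxc1 (3.62 ± 0.14), Foxf1 (3.98 ± 0.50) and Foxq1 (5.77 ± 0.21) lay above it. Foxf2 was at 3.46 ± 0.71 (adjusted p = 7.6e-04), a value that rests on 8 reads in the kidney translatome and did not pass in 12 of the 18 alternatives. No test compared the genes with the markers.

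**Figure D5:**
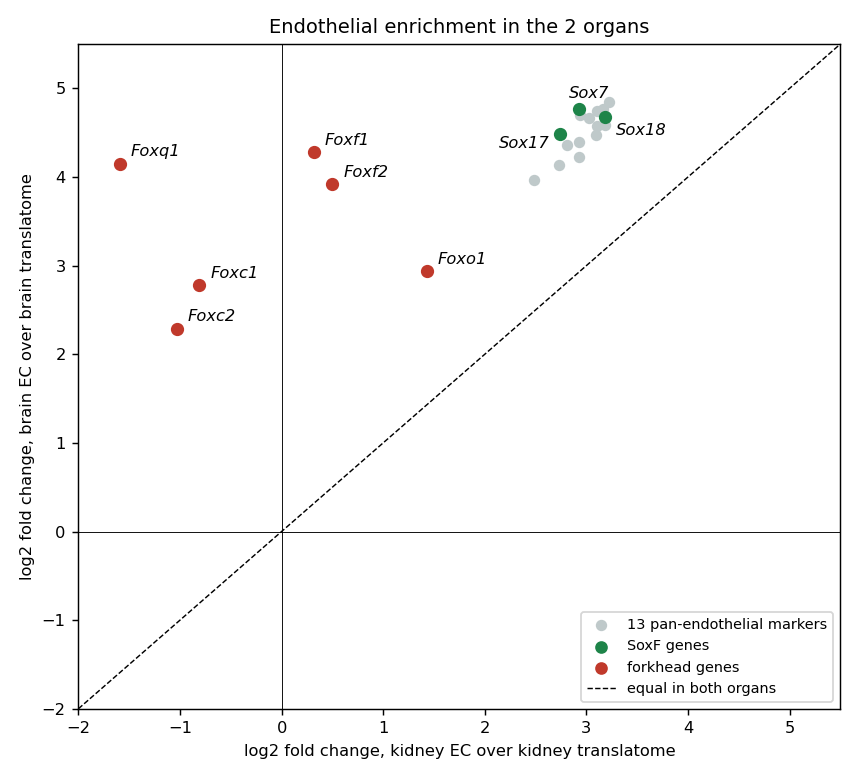
Log2 fold change of brain EC over the brain translatome (y) against kidney EC over the kidney translatome (x) for the 9 genes and 13 pan-endothelial markers, with a dashed line at equality. The SoxF genes lie among the markers, Foxo1 below them at 1.43 and 2.94, and the other forkhead genes to the left, with Foxq1 at -1.59 and 4.15.

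The whole organs were compared without sorting for a cell type. In the translatomes 6 of the 9 genes were lower in brain than in kidney (26.2% of 19241 rows) and Foxf2 was higher (27.2% of rows). Foxc2 differed most among the lower genes, at 1.77 against 48.2 RPKM (-4.58 ± 0.10), followed by Foxc1 (-1.79 ± 0.10). Foxo1 (-1.17 ± 0.09) and the SoxF genes (-1.16 ± 0.11 for Sox7, -1.12 ± 0.11 for Sox17 and -1.01 ± 0.09 for Sox18) were lower by a similar amount, and the pan-endothelial sum was 174.5 to 197.3 RPKM in brain and 479.6 to 514.4 in kidney. The SoxF genes and Foxc1 were therefore lower in whole brain but, under TMM scaling, higher or not called in brain EC.

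Foxf2 was at 12.9, 14.5 and 13.4 RPKM in the brain translatome, with a ratio of depth-scaled reads to kidney of 279.3 and an exact 95% interval of 141.6 to 647.5. Foxq1 was at 6.43, 5.9 and 5.2 in brain and overlapped kidney (0.07 ± 0.12, adjusted p = 0.61), although the EC groups differed 52.9-fold. Foxf1 at 1.51 ± 0.41 did not pass (adjusted p = 0.0046). Between the transcriptomes the same 6 genes were lower in brain (26.3% of 19841 rows), while Foxf2 at 7.74 ± 0.28 and Foxf1 at 1.24 ± 0.24 (adjusted p = 8.2e-04) were higher (27.2% of rows). The Foxf1 call was lost without any 1 of the 6 libraries, at 1.13 to 1.35 with adjusted p from 0.0011 to 0.0048.

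The Emx1-lineage translatome held little of these transcripts. In it 8 of 9 genes were lower than in the brain translatome (12.8% of 19006 rows), with no overlap, and the pan-endothelial sum was 16.4 to 19.7 RPKM. Sox7 was at 0.208, 0.164 and 0.237 RPKM (-4.27 ± 0.16), Foxf1 at 0.0312, 0.039 and 0.0467 (-3.89 ± 0.30) and Foxf2 at 0.873, 1.08 and 0.981 (-3.76 ± 0.09). The other 5 lower genes ranged from -1.86 ± 0.10 for Foxc1 to -2.99 ± 0.11 for Sox18. Foxo1 was the exception, at 3.6, 3.19 and 3.28 RPKM against 3.43, 4.44 and 3.85 (-0.15 ± 0.09, adjusted p = 0.18), a level that overlapped whole forebrain. The sum of 5 erythroid markers also overlapped, at 96.4 to 231.0 against 98.5 to 191.7 RPKM. That of 5 microglia and macrophage markers was lower, at 1.91 to 2.24 against 45.0 to 48.8. The part of RNA from cells outside the lineage in the Foxo1 value was not tested.

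Ribosome-bound and total RNA of the same tissue samples were compared to ask whether these mRNAs are taken up by tagged ribosomes in proportion to their abundance. The main fits did not use this pairing, so their standard errors and calls leave it out. In brain, 4 of 9 genes were higher in the translatome (18.6% of 19446 rows): Foxf2 (1.19 ± 0.08), Sox18 (1.10 ± 0.12), Foxq1 (0.83 ± 0.11) and Foxc1 (0.61 ± 0.11). With the tissue sample as a block 7 were, Sox7 (0.51), Foxf1 (0.80) and Foxc2 (0.56) being added. The share of all rows called with the block in brain is not given here, so these additions are not set against it. In kidney, Sox18 (0.67 ± 0.07) and Sox7 (0.54 ± 0.06) were higher (14.9% of 19336 rows). Foxq1 just missed the threshold (0.63 ± 0.12, adjusted p = 0.00102) and passed with the block (adjusted p = 3.5e-18), as did Foxc2 in the other direction (-0.15, adjusted p = 2.5e-04). In kidney the fit with the block called 9496 of the 19336 rows, so a gene that passed only with it was 1 of many. It rests on few libraries, so the size of its p-values should be read with care. Foxo1 did not pass in either organ, at -0.15 ± 0.10 in brain and -0.12 ± 0.06 in kidney. The pan-endothelial sum was also higher in the translatomes, at 174.5 to 197.3 against 121.6 to 146.5 RPKM in brain and 479.6 to 514.4 against 354.6 to 395.4 in kidney.

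Over the 7 groups the SoxF genes followed a common order of mean levels: brain EC, kidney EC, kidney translatome, kidney transcriptome, brain translatome, brain transcriptome and Emx1-lineage. Neighbouring groups in this order did not overlap, except the kidney translatome (4.73 to 5.23 RPKM) and transcriptome (4.23 to 5.32 RPKM) for Sox17. The order for Foxc2 began instead with the kidney transcriptome (53.6 ± 0.674), the kidney translatome (48.2 ± 3.31), kidney EC and brain EC. Foxc1 had brain EC first and then the kidney transcriptome (22.6 ± 1.27) and translatome (22.2 ± 2.5), which overlapped each other.

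Over the 21 libraries, which share groups and depth, log2(RPKM + 1) of Sox7 and Sox18 correlated at Pearson r = 0.9965. The rows most like Sox7 and Sox18 among 11518 mRNA rows were led by Robo4, an endothelial guidance receptor, at 0.9979 and 0.9984. Sox17 was followed most closely by BC020535, Pcdh12 and Notch4 (0.9981, 0.9977 and 0.9968), and Foxo1 by Sh3tc1, Itpkb and C2cd2 (0.9929, 0.9924 and 0.9905). Foxf2 was most like Slco1c1, a thyroxine transporter of the blood-brain barrier, at 0.9929, the amino acid transporter gene Slc38a5 at 0.9856 and Apod at 0.9844. Foxf1 was most like Wfdc1 (0.9923), Foxq1 like Htra3 (0.9854), Foxc1 like Pgm5 (0.984) and Foxc2 like Nab2 (0.9907), followed by Aldh1a2 and Cdkn1c (0.9901 each). The genes named depend on the measure: by Spearman's rho 0 of the 3 leading genes were shared for Sox7, Sox17, Sox18, Foxf1, Foxf2 and Foxc1, and Foxf2 was then most like Foxl2, Srcin1 and Nefl (0.949, 0.9481 and 0.9377). On the 7 group means Slco1c1 was again the most like Foxf2 (0.9939), with 1 of the 3 shared. These values describe 7 groups of 3 and carry no test.

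Genes that have been reported to lie downstream of these factors were counted from lists. Of 12 SoxF targets and partners, 5 were higher and 4 lower in brain EC than in kidney EC (median 0.27), where 20.1% of all rows were higher and 16.9% lower. Cldn5, the main claudin of endothelial tight junctions, was at 1349.7, 1290.9 and 1147.3 RPKM against 327.8, 353.8 and 270.3 (2.04 ± 0.11, adjusted p = 4.5e-08). Prox1, the lymphatic regulator, was higher (1.58 ± 0.22) at 3.74 against 1.27 RPKM, but was lower in brain EC than in the brain translatome (-0.88 ± 0.10), where it was at 8.44 RPKM. Mef2c (-1.25 ± 0.08) and Vcam1 (0.96 ± 0.09) were the next by size. Against the organ translatomes 8 of these 12 genes were higher and 3 lower in brain EC (24.8% and 21.4% of all rows), and 9 were higher and 2 lower in kidney EC (16.7% and 15.0%). Egfl7 of this list is also a pan-endothelial marker, so its enrichment was known in advance.

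Of 11 FoxC and FoxF targets, 5 were higher in brain EC than in kidney EC and 6 did not pass (median 0.36), where 20.1% of all rows were higher. Pdgfb, the endothelial ligand that recruits pericytes, was at 133.7, 150.1 and 141.9 RPKM against 58.1, 66.5 and 59.9 (1.25 ± 0.08, adjusted p = 1.5e-07). The chemokine receptor Cxcr4 (0.62 ± 0.07) and the VEGF receptor genes Kdr (0.54 ± 0.07) and Flt1 (0.40 ± 0.07) followed. Of the 11, 9 were higher in brain EC than in the brain translatome (24.8% of all rows) and 2 did not pass. In kidney EC 9 were higher and 1 lower than in the kidney translatome (16.7% and 15.0% of all rows). Kdr, Flt1, Tek and Pecam1 are also among the pan-endothelial markers. Their enrichment over the organ translatomes was therefore known in advance, and these counts say little about FoxC or FoxF.

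Of 13 FoxO targets, 7 were higher and 2 lower in brain EC than in kidney EC (median 0.64), where the shares of all rows were 20.1% and 16.9%. Pdk4, a kinase that inhibits pyruvate dehydrogenase, was at 2.89 against 0.543 RPKM (2.44 ± 0.16), and Angpt2, the Tie2 ligand, was at 15.8, 12.7 and 17.7 against 3.8, 2.95 and 3.86 (2.16 ± 0.15, adjusted p = 3.4e-07). Esm1, a tip cell marker, was lower at 12.1 against 36.9 (-1.56 ± 0.08), and the insulin receptor gene Insr was higher (1.49 ± 0.07). Against the organ translatomes 7 of 13 were higher and 3 lower in brain EC (24.8% and 21.4% of all rows), and 4 higher and 3 lower in kidney EC (16.7% and 15.0%).

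Among upstream regulators and paralogs of Foxo1, Foxo6 was higher in brain EC than in kidney EC (5.34 ± 0.21) at 8.87 against 0.224 RPKM. It was lower in brain EC than in the brain translatome (-1.97 ± 0.09), where it was at 42.6 RPKM, and higher in the Emx1-lineage (0.86 ± 0.05). The PI3K subunit gene Pik3r1 was lower (-0.46 ± 0.08). The paralogs Foxo3 (8.96 against 9.85 RPKM) and Foxo4 (19.4 against 16.5) did not pass.

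Among 38 other forkhead genes, of which 37 had reads, 8 were higher and 6 lower in brain EC than in kidney EC (median 0.04). Over all rows 20.1% were higher and 16.9% lower, close to the shares of this list. Foxl2, best known from the ovary, was at 27.8, 30.4 and 28.2 RPKM in brain EC and had 1, 2 and 0 reads in kidney EC, with a ratio of depth-scaled reads of 2879.1 and an exact 95% interval of 984.9 to 13962.8. It was also higher in brain EC than in the brain translatome (4.85 ± 0.10), where it was at 1.18, 1.39 and 1.1 RPKM, beside 4.77 ± 0.11 for Sox7. Reads of Foxl2 and of the antisense row Foxl2os could not be told apart. Foxb1 had 147, 112 and 125 reads in brain EC and 1, 0 and 0 in kidney EC, but was lower in brain EC than in the brain translatome (-1.52 ± 0.18), like the neural markers, of which 7 of 8 fell, and Foxi1 had 22, 44 and 45 reads in kidney EC and 0 in brain EC. Of the other forkhead genes 9 rose and 9 fell in brain EC against the brain translatome (24.8% and 21.4% of all rows). In kidney EC 3 rose and 9 fell against the kidney translatome (16.7% and 15.0% of all rows).

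Of 16 other Sox genes, 13 were higher in brain EC than in kidney EC (20.1% of all rows) and the other 3 did not pass (median 1.67). Sox2, a neural progenitor factor, was at 35.7, 28.4 and 36.7 RPKM in brain EC and had 1, 2 and 2 reads in kidney EC. Against the brain translatome, however, 11 of these 16 genes fell in brain EC and 1 rose (21.4% and 24.8% of all rows). Sox2 fell by 1.34 on the log2 scale, whereas all 3 SoxF genes rose by at least 4.49. Against the kidney translatome 1 of 15 rose and 4 fell in kidney EC (16.7% and 15.0% of all rows).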

How the data were processed

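RNA was sequenced from 21 libraries of E14.5 mouse forebrain and kidney, and groups were taken from the sample titles. The deposited counts are the reads on each RefSeq gene, which the authors mapped with RUM to mm10 and counted with rpkmforgenes on the UCSC refGene annotation, without normalization. The RPKM values were computed by the authors with the same program and were used as deposited for levels. Libraries held 21760652 to 79231692 counted reads.

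The quasi-likelihood functions of edgeR 4.0.16 (glmQLFit and glmQLFTest, TMM scaling, under R 4.3.3) were applied to rows with at least 1 count, in 10 comparisons of 3 libraries with 3 and in 1 interaction fit of 12, with Benjamini-Hochberg adjustment over all rows and a threshold of 0.001. Standard errors were derived from the log2 fold change and its F statistic, and the fitted fold change of a gene with few reads in a group depends on the prior count. The 392 rows that repeat a symbol and accession were kept in the main tests. Alternatives were DESeq2 1.42.0, limma 3.58.1 on log2(RPKM + 1) and log2(RPKM + 0.1), relative log expression factors, library totals, at least 10 counts in 3 samples, repeated rows left out, a fit of all 21 samples, scaling by pan-endothelial markers, the replicate number as a block, and each library left out in turn. The test was first run on simulated data. Exact binomial intervals came from scipy 1.17.1, and gene positions from GENCODE vM21 on GRCm38, the build of mm10.

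The 9 genes, the target, paralog and marker lists and the tests were chosen with earlier results of these data known. Named genes were the 9 members, up to 4 genes of each target or family list with the largest called difference between brain EC and kidney EC, the 3 rows most correlated with each member among mRNA rows with a group mean of at least 5 RPKM, and genes within 100 kb. Of the last 2 kinds, the text gives a selection made after their values were seen. Same-numbered translatome and transcriptome libraries came from the same tissue sample, and their deviations correlated at 0.473 to 0.541 in brain and 0.528 to 0.605 in kidney. Those of brain EC and kidney EC correlated at 0.151 to 0.206, which is a hint of pairing from the data, since no label or method gives them a common source. Replicates were separate tissue samples of pooled organs, and no library was left out of the main tests. Statements that groups did or did not overlap only describe the values, since the share of all rows without overlap is not given here. Some results on genes of the paralog and family lists are not reported here.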

Additional observations from a re-analysis of the deposited data

Results flagged for a closer look

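The enrichment of endothelial libraries over the organ translatome differed between brain and kidney for each of the 9 genes in the edgeR interaction test as reported, though for Foxf2 it did not pass in 12 of 18 alternatives. The log2 difference, brain minus kidney, was 5.77 for Foxq1, 3.98 for Foxf1, 3.62 for Foxc1, 3.46 for Foxf2 and 3.35 for Foxc2. It was 1.87 for Sox7, 1.77 for Sox17, 1.53 for Sox18 and 1.53 for Foxo1. The median of all rows was 0.15 and that of the 13 pan-endothelial markers 1.51. Foxq1, Foxc1 and Foxc2 were higher in brain EC than in the brain translatome and lower in kidney EC than in the kidney translatome. The Foxf2 value fell to 2.68 without kidney translatome replicate 2 (adjusted p = 0.046).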

How the results depend on the processing

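The counts of the 9 genes called in brain EC against kidney EC, in each EC group against its organ references and in the Emx1-lineage were within 1.5 times the reported ones under every alternative run. In brain EC against kidney EC they were 6 to 7 higher and 1 lower with each library left out, and Sox18 passed without kidney EC replicate 2 (0.47, adjusted p = 7.8e-04). Sox18 and Foxo1 also passed in the fit of all 21 samples (0.51 and 0.36) and Sox18 under DESeq2 (0.40), while Sox17 was lost under limma on log2(RPKM + 1) (0.47, adjusted p = 0.0016). Scaled by the pan-endothelial markers, Sox7 (0.36, adjusted p = 0.0028) and Sox17 (0.31, adjusted p = 0.005) were lost, so no SoxF gene passed there. Under the replicate block 7 genes were higher in the brain translatome than in the brain transcriptome, against 4 without it, 2 under either limma setting and 3 to 6 with a library left out. In kidney 1 gene was lower with the block, and 0 to 1 with a library left out, the 1 being Foxc2 without kidney translatome replicate 1 (-0.21), and the block raised the rows called from 5929 to 9496. Between brain and kidney translatomes 2 genes were higher in the fit of all samples and 1 to 2 with a library left out, Foxf1 being added without kidney translatome replicate 1 (2.22). Between the transcriptomes 1 was higher, not 2, under library totals, the replicate block, DESeq2 and both limma settings, and 1 with each library left out, since Foxf1 was lost. The replicate block changed no other count of the 9 genes by over 1.5 times.

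Only differences that were not called reversed. Foxq1 between the translatomes was -0.12 under library totals, -0.11 and -0.12 under limma with pseudocounts of 1 and 0.1, and -0.03 to 0.18 with a library left out. In kidney EC against the kidney translatome Foxf1 was -0.05 under library totals and -0.12 to 1.03 with a library left out, and Foxf2 -0.02 to 1.28. In the kidney translatome against the transcriptome, leaving out a library gave -0.2 to 0.96 for Foxf1, -0.18 to 2.05 for Foxf2 and -0.12 to 0.03 for Foxc1. The causes were not tested. Rows called in the Emx1-lineage comparison numbered 4191, and 2021 or 2286 under limma. Depth limits Foxf1 and Foxf2 in kidney, where Foxf2 had at most 7 reads in a library, so their kidney differences and the Foxf2 interaction are poorly fixed. Organ and lane cannot be told apart between the EC groups, nor Cre driver and lane from cell type between an EC group and its organ reference, and 3 libraries per group limit all tests.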
